A study of Mus musculus with 15 samples.

Results

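The genes described here encode enzymes and remodellers that act on DNA methylation and chromatin in the mouse retina at postnatal day 2. They were chosen by symbol alone: the Dnmt and Tet genes, Hdac, Kdm and Kmt2 genes, the core of Polycomb repressive complex 2 (Ezh1, Ezh2, Eed and Suz12), and the Smarc, Chd and Arid genes. Kdm5c, Kdm5d and Kdm6a were excluded by the rule. Transcript levels were summed per gene, and a gene was kept at 0.5 FPKM or more in either group of any comparison, FPKM being fragments per kilobase of transcript, scaled to the mapped total. The symbols matched 74 genes and 73 were kept, of 14978 genes that passed the same minimum. The gene below it was Kdm4d, a histone H3 lysine 9 demethylase, with 0.345 FPKM in WT and 0.228 in MUT. One of the 73, Kdm6bos, is not a demethylase but an RNA antisense to Kdm6b.

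Bulk RNA-seq was performed on 15 retina samples of CD-1 mice, 5 in each of 3 groups. WT retinas carried Neurog2CKO/CKO, a conditional allele in the homozygous state, and no Cre. HET retinas were Chx10Cre;Neurog2CKO/+ and MUT retinas Chx10Cre;Neurog2CKO/CKO, so a HET or MUT retina differs from WT in the Cre transgene as well as in Neurog2, and no group with Cre and unmodified Neurog2 was analysed here. The Cre transgene is active in retinal progenitors. Every value below is one that the authors computed over a whole group, so the spread between samples cannot be shown, the depth per sample is unknown, and no n or SD accompanies a level. Each sample title carries a bracketed number of its own, whose first part recurs in all 3 groups and whose meaning the labels do not give. Nothing in the labels says that a group's samples are separate animals, and the authors' p-values then measure only the spread between samples that may be technical repeats. In bulk tissue, a change in the number of cells of a type and a change in RNA per cell cannot be told apart.

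DNA methyltransferases add methyl groups to cytosine in CpG, with Dnmt1 copying the pattern at replication and Dnmt3a and Dnmt3b writing new marks, and Tet enzymes oxidise the mark. Histone marks are written by enzymes such as the Kmt2 family (H3 lysine 4) and Ezh1 or Ezh2 (H3 lysine 27), and removed by Kdm demethylases and Hdac deacetylases. Many Smarc proteins and some Arid proteins are subunits of the BAF (SWI/SNF) or ISWI remodellers, other Arid proteins bind DNA or RNA outside them, and Chd proteins include the motors of the NuRD complex. In the developing nervous system several of these complexes exchange subunits as progenitors become neurons, and Kdm1a gains a neuron-specific microexon.

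The 2 alternative exons of Kdm1a are shown because levels of its transcripts differed between the groups by more than its summed level did. Kdm1a (LSD1, a demethylase of H3 lysine 4 and a subunit of the CoREST complex) lies on the minus strand at chr4:136550540-136602723 (GRCm38, the assembly also called mm10). A 60 nt exon at chr4:136582040-136582099 and a 12 nt exon at chr4:136563438-136563449 both lie inside the coding sequence, both have a length that is a multiple of 3, and each is annotated in 1 transcript. The 12 nt exon is the microexon known from neurons. Capitals mark the exon, and the 15 lower-case bases on each side come from the neighbouring exons of that transcript.
Kdm1a 60 nt exon: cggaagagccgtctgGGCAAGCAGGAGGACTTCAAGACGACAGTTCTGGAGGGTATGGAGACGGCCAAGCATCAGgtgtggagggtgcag
Kdm1a 12 nt exon: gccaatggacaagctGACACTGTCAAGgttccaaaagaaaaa

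Dnmt3a (chr12:3806007-3914443, plus strand) is read from an upstream start, which gives the long enzyme, and from an internal start, which gives a short one, and its promoters are shown because transcripts from both starts were listed in this tissue. The sequences are from RefSeq (GRCm38.p6), with each CpG in capitals. The upstream window, chr12:3806730-3806979, holds 38 CpG in 250 bases at 82.4% GC. The internal window, chr12:3891494-3891727, holds 15 CpG in 234 bases at 73.5% GC.
Dnmt3a upstream promoter: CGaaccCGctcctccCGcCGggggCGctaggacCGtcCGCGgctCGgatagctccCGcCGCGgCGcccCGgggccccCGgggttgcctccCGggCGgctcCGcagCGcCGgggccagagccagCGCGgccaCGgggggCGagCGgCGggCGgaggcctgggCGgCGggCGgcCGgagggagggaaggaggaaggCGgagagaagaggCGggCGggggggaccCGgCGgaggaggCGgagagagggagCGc
Dnmt3a internal promoter: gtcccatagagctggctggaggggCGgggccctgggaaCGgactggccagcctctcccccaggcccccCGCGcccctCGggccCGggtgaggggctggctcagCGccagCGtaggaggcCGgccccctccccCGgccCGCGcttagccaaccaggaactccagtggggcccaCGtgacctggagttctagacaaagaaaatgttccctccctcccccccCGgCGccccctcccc

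CpG-rich promoters were common across the genes. RefSeq windows of 300 bases (250 before the start and 50 after it) were found for 54 of the 73, 74 windows in all. The median ratio of observed to expected CpG was 0.823, and 77.0% of windows were CpG-rich, defined as a ratio over 0.6 with GC over 50%. The same share was 64.9% over 13217 windows of all genes at 0.5 FPKM or more and 33.3% over all 32851 windows, so the genes lie nearer to other expressed genes than to promoters at large. The E-box CAGATG, searched on both strands as a motif that proneural factors such as Neurog2 can bind, was present in 8 member windows (10.8%), against 11.7% of windows of expressed genes and 17.2% of all windows. A match describes letters only, and these shares were not tested.

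The labels held for the targeted gene. Neurog2 (chr3:127633135-127635631), the proneural transcription factor deleted here, stood at 59.5 FPKM in WT, 42.4 in HET and 10.6 in MUT. In the authors' deposited table its log2 fold change from WT to MUT was -2.49 ± 0.32 (q = 0.0388), where each ± is the standard error implied by the authors' fold change and test statistic. That error does not match the deposited p-values: from WT to HET, Neurog2 differed by -0.48 ± 0.28 in the authors' deposited table at p = 5e-05. It is therefore given as a description, and no difference is judged against it. The photoreceptor gene Crx (217 FPKM in WT) and the progenitor genes Pax6 (384), Rax (134) and Six3 (94.7), which define retina, were all present. WT and MUT levels are taken from the WT to MUT comparison and HET levels from the WT to HET comparison unless stated. These tables were normalized separately, and over transcripts listed in all 3 a member's level in the same group differed by at most 0.01 on the log2 scale.

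The chromatin regulators were abundant in WT retina. Their median level was 24.3 FPKM, against 11.8 over all genes, and 52 of 73 lay above the median of all genes. The range ran from 1.30 FPKM (Kdm6bos) to 154 (Hdac2), with 55 genes over 10 FPKM, 17 over 50 and 3 over 100. Those 3 were the histone deacetylase Hdac2, the BAF subunit Smarce1 (129) and the NuRD motor Chd4 (109). In the plot of every gene's level, the 3 groups overlie each other for most genes, and the few visible gaps belong mainly to genes under 10 FPKM.

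**Figure D1:**
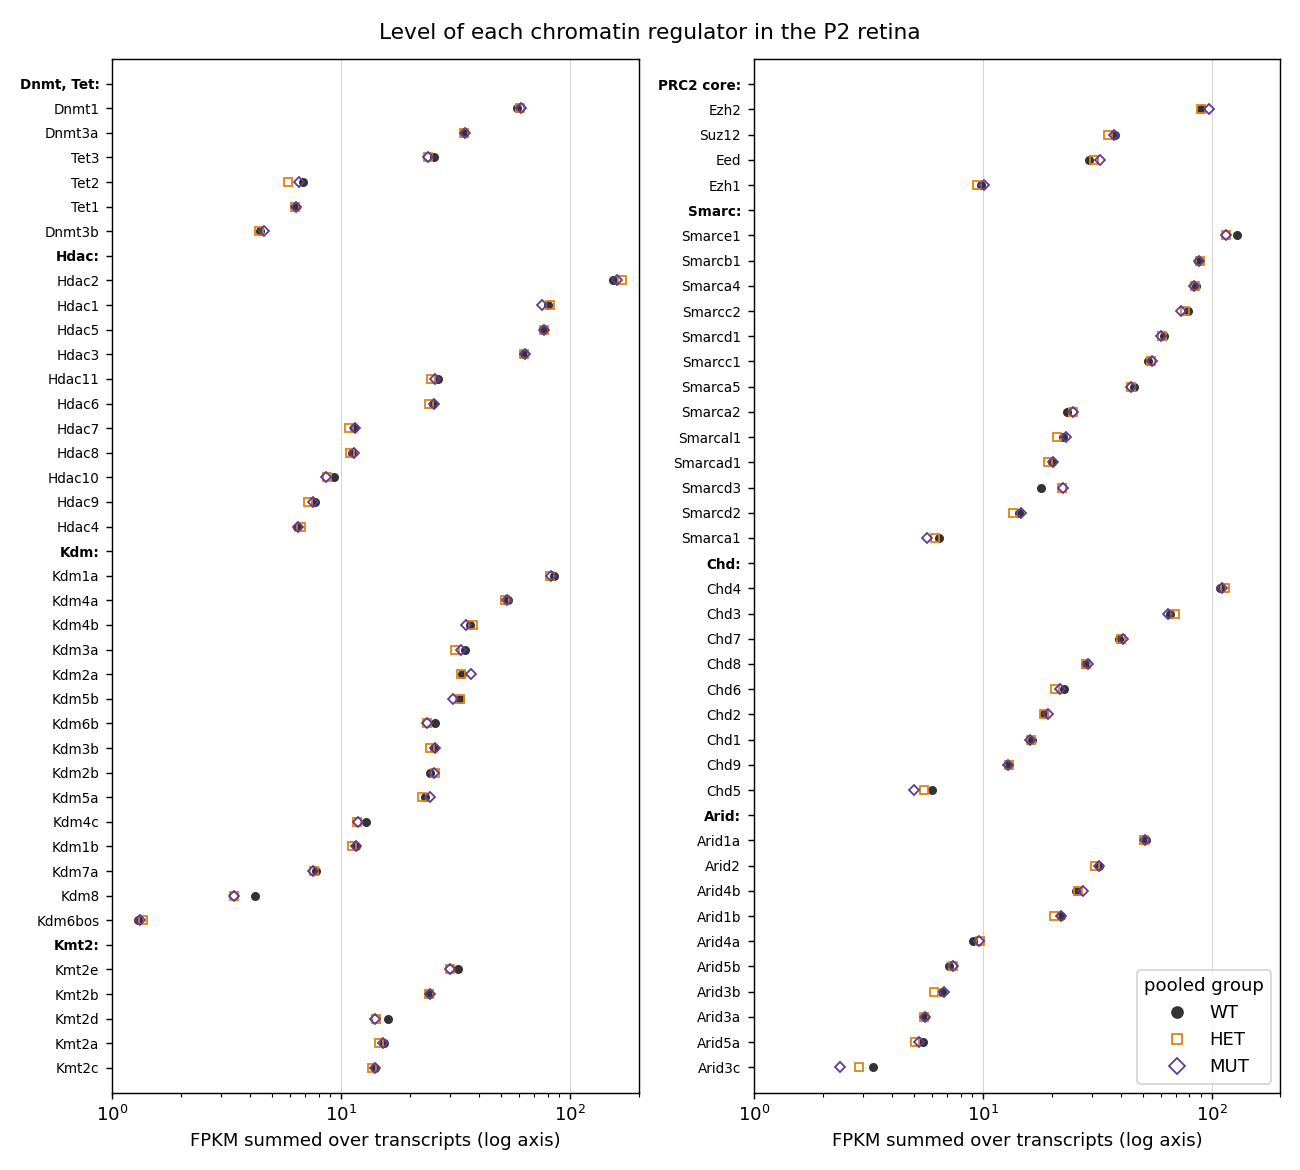
Level of each gene in the 3 pooled groups, as FPKM summed over its transcripts on a log axis, by role and in order of the WT level. Circles (WT), squares (HET) and diamonds (MUT) largely coincide, with visible gaps at Arid3c, Kdm8, Chd5 and Smarcd3. The WT circle of Smarcd3 leaves out a transcript listed only for WT and HET. Pooled values carry no error bar.

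WT and MUT differ in the recombination of both Neurog2 alleles, and between them no transcript of a chromatin regulator was called by the authors' test. A p-value that misses the threshold does not show that levels were equal. Gene levels were almost the same in both groups, with a median log2 ratio (MUT over WT, of FPKM + 0.1) of -0.00, against 0.01 over all genes. None of 332 member transcripts had a q-value under 0.05 in the authors' deposited table, where 0.115% of all rows did. All 51 rows called there had the smallest p-value in the authors' deposited table, 5e-05. None had an unadjusted p-value under 0.05 in the authors' deposited table either, against 0.851% of all rows, a share that would correspond to 2.83 of the 332 transcripts. At p under 0.10 the authors' deposited table held 2 of 332, against 1.56% of all rows. The lowest p-value of a member in the authors' deposited table, 0.0604, belonged to a minor transcript of Smarca1 (ENSMUST00000077569, 1.03 FPKM in WT and 0.255 in MUT).

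By gene, 35 members were higher in MUT than in WT and 38 lower, while 53.8% of all genes were higher. The lowest ratio was that of Arid3c, an ARID-domain DNA-binding protein, at 3.32 FPKM in WT and 2.38 in MUT (log2 ratio -0.47). It was followed by Kdm8 (-0.30), the neural NuRD motor Chd5 (-0.25), the H3 lysine 4 methyltransferase Kmt2d (-0.19) and the ISWI motor Smarca1 (-0.17). The highest ratios were those of the BAF subunit Smarcd3 (18.0 FPKM in WT, 22.4 in MUT, log2 ratio 0.31), Eed (0.16), the H3 lysine 36 demethylase Kdm2a (0.14), Ezh2 (0.12) and Arid4b (0.10). The Smarcd3 ratio depends on which transcripts are listed. In the comparison with HET, the WT group summed to 20.3 FPKM, with a transcript that is not listed for WT and MUT. With the leading transcript alone Kdm2a turned to -0.03, Arid4b to -0.04 and Eed to -0.05. Only 4 of 73 lay beyond 0.25 in either direction, a limit chosen after the values were seen, against 14.4% of all genes. Low genes vary more, and among genes at 5 FPKM or more the count was 2 of 69 against 6.86%. Smarcd3 is in both counts.

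Between WT and HET, where 1 Neurog2 allele is conditional under Cre, the count was also 0. Of 332 member transcripts 0 had a q-value under 0.05 in the authors' deposited table, and 0% of all rows did. The lowest q of any row there was 0.0769, which Neurog2 shared. No row could be called, so this 0 says nothing about the members. At an unadjusted p under 0.05 the authors' deposited table again held 0 members, against 0.515% of all rows, and at p under 0.10 it held 2, against 1.14%. The lowest member p in the authors' deposited table was 0.0651, for the main Kmt2d transcript (ENSMUST00000023741), at 9.79 FPKM in WT and 8.22 in HET.

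The median log2 ratio (HET over WT) was -0.02, against 0.01 over all genes, with 28 members higher and 45 lower while 53.2% of all genes were higher. The lowest ratios were those of Kdm8 (-0.29), the methylcytosine dioxygenase Tet2 (-0.20), Arid3c (-0.19), Kmt2d (-0.17) and Smarce1 (-0.14). With the leading transcript alone Smarce1 came to -0.04 and Tet2 to -0.34. Hdac2 (0.15), Smarcd3 (0.13), the Sin3-associated Arid4a (0.12), the BAF ATPase Smarca2 (0.09) and Eed (0.08) were at the other end, though with the leading transcript alone Arid4a came to -0.00 and Eed to -0.08. Kdm8 was the 1 gene beyond 0.25, against 13.1% of all genes, and among genes at 5 FPKM or more none of 69 was, against 5.99%.

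HET and MUT share the Cre transgene and differ in the second Neurog2 allele, and they too showed no called transcript. The authors' deposited table held 0 of 327 member transcripts with a q-value under 0.05, beside 0% of all rows. Its lowest q over all rows was 0.0762, which Neurog2 shared. Here too no row could be called, so this 0 says nothing about the members. The same table held 0 at an unadjusted p under 0.05, beside 0.814% of all rows of the authors' deposited table, and 1 at p under 0.10, beside 1.5%. The lowest member p there was 0.0587, for an Arid5a transcript (ENSMUST00000115032) at 1.44 FPKM in HET and 1.01 in MUT. Arid5a encodes an RNA-binding ARID protein.

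The median log2 ratio (MUT over HET) was 0.01, against 0.00 over all genes, with 41 members higher and 32 lower while 52.1% of all genes were higher. The lowest were Arid3c (-0.28), Smarca1 (-0.16), Chd5 (-0.14), Hdac1 (-0.12) and Chd3 (-0.11), and the highest Tet2 (0.15), Kdm2a (0.13), Arid3b (0.13), the replication fork helicase Smarcal1 (0.13) and the H3 lysine 4 demethylase Kdm5a (0.12). With the leading transcript alone Kdm2a came to 0.01 and Tet2 to 0.28. Over transcripts listed in all 3 tables Arid3b came to 0.06. Arid3c was the 1 gene beyond 0.25, against 9.16% of all genes, and none of 69 was at 5 FPKM or more, against 3.7%. Each group enters 2 of the 3 comparisons, so a gene that is high or low in 1 pooled group moves in both of them, and the 3 sets of ratios are not independent.

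The spread of the ratios was close to that of all genes at 5 FPKM or more for HET over WT, and smaller in the other comparisons. The interquartile range over the members was 0.110 for HET over WT, 0.0851 for MUT over WT and 0.0754 for MUT over HET. Over all genes at 5 FPKM or more it was 0.118, 0.123 and 0.0994. The members were not limited to that level. In each comparison most of the genes lay in a narrow band around 0, as the plot of ratios by role shows.

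**Figure D2:**
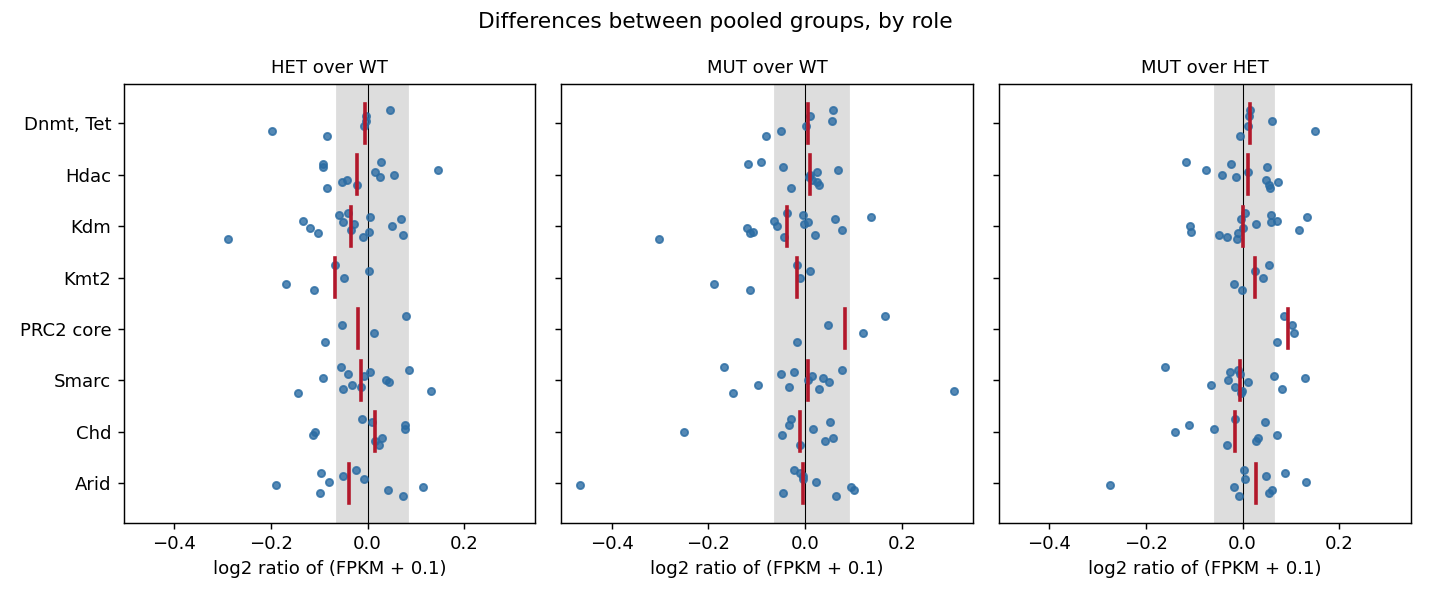
Log2 ratio of (FPKM + 0.1) of each gene in the 3 comparisons, by role. Points are genes, red bars the median of a role, and the grey band the middle 50% of all genes. Most points lie between -0.2 and 0.2, with Arid3c (-0.47) and Smarcd3 (0.31) farthest out for MUT over WT. The Smarcd3 value leaves out a transcript listed only for WT and HET.

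Among the DNA methylation enzymes, Dnmt1 was the most abundant, with 59.0 FPKM in WT, 60.6 in HET and 61.5 in MUT. Dnmt3a stood at 34.6 FPKM in WT, 34.6 in HET and 34.8 in MUT. Dnmt3b was low in all 3 groups (4.43, 4.40 and 4.61 FPKM). The division between maintenance and de novo enzymes was therefore nearly constant, with Dnmt1 at 60.2%, 60.9% and 60.9% of the summed level. Of the Tet enzymes, Tet3 led with 25.5, 24.0 and 24.1 FPKM, ahead of Tet2 (6.80, 5.89 and 6.57) and Tet1 (6.37, 6.31 and 6.38). Tet2 was the 1 enzyme of the 6 whose HET value lay more than 0.1 (log2) from both other groups.

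The deacetylases were led by the class I enzymes of the NuRD, Sin3 and CoREST complexes. Hdac2 stood at 154 FPKM in WT, 170 in HET and 162 in MUT, and its near-copy Hdac1 at 80.6, 81.7 and 75.6. Hdac2 thus made up 65.7% of the pair in WT, 67.5% in HET and 68.1% in MUT. The difference in the main Hdac1 transcript (ENSMUST00000102597) from HET to MUT was -0.15 ± 0.22 in the authors' deposited table (p = 0.129). The class IIa enzymes were unequal, with Hdac5 at 76.5 FPKM in WT and Hdac4, the lowest deacetylase, at 6.46. The X-linked enzymes Hdac6 (25.2, 24.3 and 25.5 FPKM) and Hdac8 (11.1, 10.9 and 11.4) had similar sums in the 3 groups. With its leading transcript alone Hdac6 turned in sign, to a log2 ratio of -0.16 for MUT over WT and -0.12 for MUT over HET.

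Among the demethylases, Kdm1a (85.2, 82.4 and 83.0 FPKM) and the H3 lysine 9 and 36 demethylase Kdm4a (53.5, 52.2 and 53.4) were the most abundant. Kdm8 (JMJD5, a JmjC-domain protein) was the lowest that codes for protein, at 4.21 FPKM in WT, 3.41 in HET and 3.40 in MUT. HET and MUT were close to each other and both below WT. Its main transcript (ENSMUST00000033010) differed between WT and MUT by -0.33 ± 0.50 in the authors' deposited table (p = 0.134). The H3 lysine 27 demethylase Kdm6b had 25.7, 23.8 and 23.8 FPKM. Kdm6bos (chr11:69401513-69402700) lies within Kdm6b on the opposite strand, and since no source used here gives the strand of the libraries, its 1.30 FPKM cannot be told apart from Kdm6b reads.

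The 5 Kmt2 genes stood between 14.2 (Kmt2c) and 32.5 FPKM (Kmt2e) in WT, with Kmt2b second at 24.3. Kmt2d, a methyltransferase of enhancers, had 16.1 FPKM in WT, 14.3 in HET and 14.1 in MUT. WT was the highest group, and the HET and MUT values nearly coincided. Its main transcript differed from WT to HET by -0.25 ± 0.31 in the authors' deposited table (p = 0.0651, q = 1.00).

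In the Polycomb repressive complex 2, which methylates H3 lysine 27, Ezh2 stood at 89.7 FPKM in WT, 90.1 in HET and 97.6 in MUT. Eed, the subunit that binds the mark, had 29.1, 30.7 and 32.7 FPKM. Suz12 had 37.8, 35.4 and 37.4, and Ezh1, the catalytic paralogue typical of non-dividing cells, 9.81, 9.40 and 10.1. MUT was the highest group for Ezh2, Eed and Ezh1 and WT for Suz12. All 4 genes were higher in MUT than in HET, with log2 ratios from 0.07 to 0.11, where 52.1% of all genes were higher, and 3 of 4 were higher in MUT than in WT. No transcript of the 4 had a p under 0.05 in the authors' deposited table, and the direction for Eed rests on its second transcript: the leading transcript alone was lower in MUT than in WT, as given with the lowest and highest ratios. The rise of Suz12 from HET to MUT was likewise not in its leading transcript (ENSMUST00000017692, 22.1 FPKM in HET and 21.0 in MUT). It was in another (ENSMUST00000163272, 9.53 and 12.6). Ezh2 held 90.1% of the Ezh1 and Ezh2 level in WT, 90.5% in HET and 90.6% in MUT.

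Of the BAF subunits, Smarce1 stood at 129 FPKM in WT, 116 in HET and 116 in MUT, and the core subunit Smarcb1 at 87.4, 89.3 and 87.7. The leading Smarce1 transcript alone gave a log2 ratio of -0.04 for HET over WT. The ATPase was mainly Smarca4 (BRG1; 85.1, 85.0 and 83.8 FPKM), which gave 78.4%, 77.4% and 77.2% of its sum with Smarca2 (BRM; 23.4, 24.8 and 24.7). Smarcc2, a scaffold subunit, had 78.8, 76.7 and 73.6 FPKM, beside 52.8, 54.1 and 54.6 for its paralogue Smarcc1. The Smarcc2 share was thus 59.9% in WT, 58.6% in HET and 57.4% in MUT. These are differences of a few percentage points between pooled values, with no error to set them against.

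Smarcd3 (BAF60C), a subunit known from heart development, had 18.0 FPKM in WT and 22.4 in MUT, and 20.3 in WT and 22.3 in HET in the table of those groups. The WT values differ because a further transcript (ENSMUST00000195943, 2.39 FPKM in WT and 7.7e-05 in HET) is listed only for WT and HET. Over transcripts listed in all 3 tables the log2 ratio was 0.31 for HET over WT and 0.31 for MUT over WT. The leading transcript (ENSMUST00000030791) went from 10.5 FPKM in WT to 13.1 in MUT, a difference of 0.31 ± 0.62 in the authors' deposited table (p = 0.242). HET and MUT lay close together and above WT in these transcripts. The set common to all 3 comparisons leaves out ENSMUST00000195943, and so gives WT a lower sum. Over all transcripts listed for WT and HET the log2 ratio of HET over WT was 0.13. Kmt2b also depended on the set. Its ratios were 0.23 (HET over WT) and 0.25 (MUT over WT) over common transcripts, against 0.00 and 0.01 over all listed.

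The ISWI motor was mainly Smarca5 (46.0, 44.4 and 44.4 FPKM), and its X-linked paralogue Smarca1 was the lowest Smarc gene at 6.43, 6.16 and 5.71. Its sign depended on which models are listed: over transcripts present in all 3 tables the log2 ratio turned to 0.15 for HET over WT and 0.01 for MUT over WT. The transcript that decides this (ENSMUST00000077569) went from 1.02 FPKM in WT to 0.184 in HET (p = 0.117 in the authors' deposited table), and it is not listed for HET and MUT. No row of any table has an FPKM of exactly 0, so a transcript at 0 may be missing from a table. ENSMUST00000077569, however, was above 0 in HET and in MUT in their comparisons with WT, and why it is not listed is unknown.

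Among the Chd remodellers, Chd4 stood at 109, 115 and 111 FPKM and Chd3 at 66.1, 69.5 and 64.6. Chd5, the NuRD motor found mainly in neurons, was the lowest at 5.99, 5.52 and 5.02 FPKM, with WT highest and MUT lowest. Chd4 held 60.3%, 60.5% and 61.4% of the 3 NuRD motors. Chd7, the remodeller mutated in CHARGE syndrome and named here after its values were seen, had 39.4, 40.0 and 41.1 FPKM.

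Of the Arid genes, the BAF subunit Arid1a (51.9, 50.8 and 51.1 FPKM) and the PBAF subunit Arid2 (32.3, 31.1 and 32.3) led. Arid3c was the lowest at 3.32 FPKM in WT, 2.88 in HET and 2.38 in MUT, with WT highest and MUT lowest. Its main transcript (ENSMUST00000171251) differed from WT to MUT by -0.32 ± 1.75 in the authors' deposited table (p = 0.674). The log2 ratio of the gene was -0.31 with that transcript alone.

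**Figure D3:**
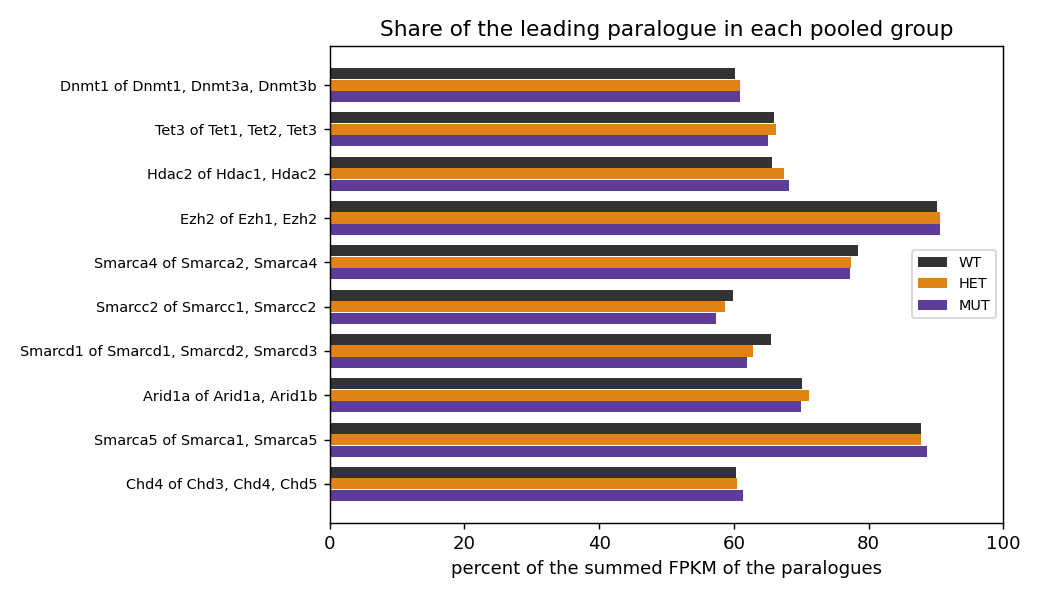
Share of the leading paralogue in the summed FPKM of its family, in percent, for the 3 pooled groups. The shares change by under 4 percentage points between groups in all 10 families; bars start at 0 and carry no error because values are pooled.

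The genes were mostly read as several transcripts. A median of 4 transcripts per gene was listed for WT and MUT, 7 genes had 1, and Hdac5 had the most with 17. The leading transcript made up a median of 64.0% of the gene's level in WT, over 80% in 19 genes and as little as 21.4% in Smarca2. In all, 339 member transcripts were listed in any table and 317 in all 3, and the lists differed for 19 genes. Levels of transcripts of 1 gene are estimates divided from shared reads, so an excess in one can stand against a deficit in another.

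Kdm1a, singled out after its values were seen, showed such an opposition while its sum stayed level. The full-length transcript without either alternative exon (ENSMUST00000116273) had 27.5 FPKM in WT, 19.5 in HET and 16.5 in MUT. The one with the 60 nt exon printed above (ENSMUST00000105847) had 26.7, 32.4 and 33.7 FPKM. WT held the highest value of the former and the lowest of the latter, and the share with the 60 nt exon was 49.3% in WT, 62.4% in HET and 67.1% in MUT.

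Neither Kdm1a transcript passed the test. The transcript without the exon differed from WT to MUT by -0.73 ± 0.88 in the authors' deposited table (p = 0.0642), and from WT to HET by -0.49 ± 0.88 (p = 0.205). The transcript with the exon differed from WT to MUT by 0.34 ± 0.87 in the authors' deposited table (p = 0.304). The annotated models also differ in the length of the first exon (492 and 456 nt), so the pair does not measure the 60 nt exon alone. The model with the neuronal 12 nt exon (ENSMUST00000170979) is a fragment of 965 nt and 11 exons, against 3028 nt and 20 exons for the one with the 60 nt exon, so its level rests on how shared reads were divided. It stood at 9.48, 9.30 and 9.53 FPKM. Similar in the 3 groups was also a model that skips 2 middle exons (ENSMUST00000046846), at 16.6, 16.2 and 17.2 FPKM.

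Transcripts from both Dnmt3a starts were listed in every group. The long transcripts from the upstream start had 19.6 FPKM in WT, 20.1 in HET and 18.8 in MUT, and the short transcript from the internal start (ENSMUST00000172689) had 13.4, 12.2 and 14.1. The short form was thus 40.6%, 37.9% and 42.7% of both forms. Its annotated model ends at position 3907842, well before the end of the gene (3914443), so this share also rests on how reads were divided between a model with a short 3′ end and the others. HET was the lowest group for the short form and MUT the highest, and the difference between them was 0.19 ± 0.69 in the authors' deposited table (p = 0.533).

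**Figure D4:**
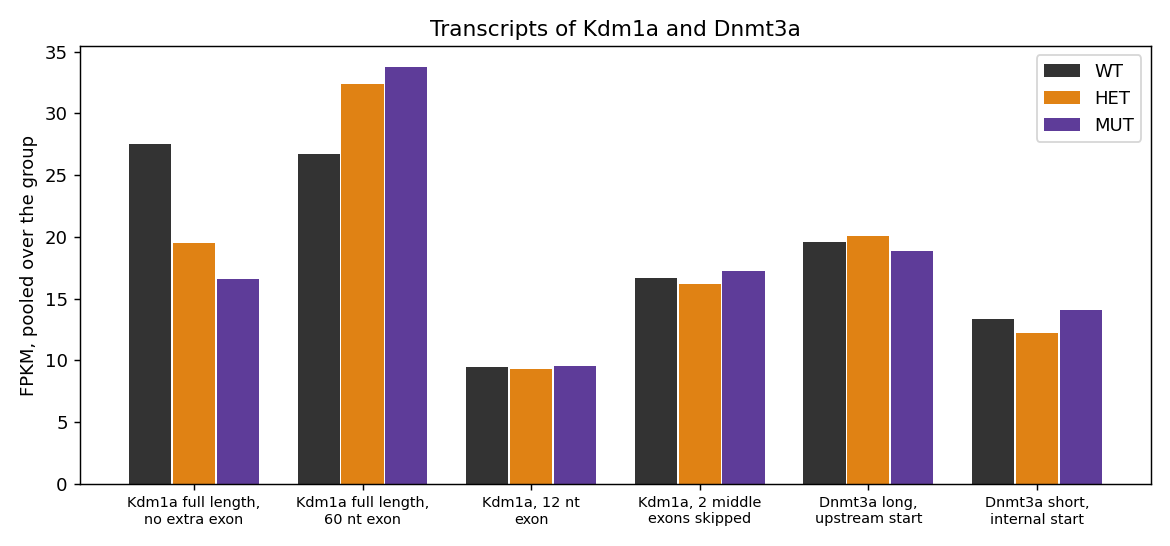
FPKM of Kdm1a and Dnmt3a transcripts in the 3 pooled groups; bars start at 0 and carry no error because values are pooled. The Kdm1a transcript without an alternative exon is highest in WT (27.5) and the one with the 60 nt exon lowest there (26.7), while the other models lie close together.

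Further chromatin genes outside the rule gave a like picture. Of 106 genes in 12 related lists (such as Polycomb repressive complex 1, other BAF subunits, acetyltransferases, sirtuins and methylation readers), 100 passed the minimum. Their median log2 ratio was -0.01 for HET over WT, 0.01 for MUT over WT and 0.02 for MUT over HET, with 46, 55 and 63 of 100 above 0, beside 53.2%, 53.8% and 52.1% of all genes. Of 7 sirtuins, 7 were lower in HET than in WT and 6 lower in MUT than in WT. Of 16 Polycomb repressive complex 1 genes, 12 were lower in HET than in WT. Of 10 H3 lysine 9 methyltransferases and readers, 9 were higher in MUT than in WT. These lists were picked after their values were seen, and their directions were not tested. No transcript of the 106 genes had a q-value under 0.05 in the authors' deposited table. At an unadjusted p under 0.05 the authors' deposited tables held 2 of 482, 2 of 488 and 0 of 477, beside 0.515%, 0.851% and 0.814% of all rows, all 4 lower in HET or MUT than in WT.

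The larger of these differences was in Tdg, the glycosylase that removes bases oxidised by Tet enzymes. One of its transcripts (ENSMUST00000092266) had 15.3 FPKM in WT and 2.39 in HET, a difference of -2.68 ± 0.98 in the authors' deposited table (p = 0.0005, q = 0.637). From WT to MUT it went from 15.4 to 2.61 FPKM, a difference of -2.56 ± 0.97 in the authors' deposited table (p = 0.0007, q = 0.380). Summed over its transcripts Tdg was level, at 72.4 FPKM in WT and 70.0 in MUT, so the difference was between transcripts and not in their sum. A second Tdg transcript (ENSMUST00000151390) went from 2.99 to 0.869 FPKM from WT to MUT (p = 0.0240 in the authors' deposited table). A transcript of the deacetylase Sirt1 (ENSMUST00000105442) went from 1.54 to 0.584 FPKM from WT to HET (p = 0.0218 in the authors' deposited table).

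BAF subunits that mark progenitors or neurons were also compared. Of the progenitor subunits, Actl6a had 78.5, 76.6 and 79.6 FPKM, Phf10 33.8, 34.9 and 34.8, and Ss18 31.1, 31.1 and 32.4. All 3 were higher in MUT than in WT (median log2 ratio 0.04), and 2 of 3 were higher in HET than in WT (0.01) and in MUT than in HET (0.05). Of the neuronal subunits, Actl6b had 34.4, 36.7 and 32.0 FPKM, Dpf1 17.5, 19.5 and 17.4, Dpf3 14.1, 15.2 and 13.9, and Ss18l1 9.92, 9.17 and 8.74. MUT was the lowest group for each neuronal subunit. All 4 were lower in MUT than in HET (median log2 ratio -0.15) and than in WT (-0.06), against 3 of 4 higher in HET than in WT (0.11), and no transcript of theirs had a p under 0.05 in the authors' deposited table. Over all genes, 52.1% were higher in MUT than in HET, 53.8% in MUT than in WT and 53.2% in HET than in WT. The directions of both sets were not tested.

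Several markers of cell types had ratios farther from 0 than the chromatin regulators. Of 14 microglia and macrophage markers 12 were listed (all but Itgam and Ptprc), and these 12 were higher in HET than in WT and in MUT than in WT, with summed levels of 78.6 to 102 and of 79.6 to 116 FPKM. Their median log2 ratios were 0.34 for HET over WT, 0.52 for MUT over WT and 0.19 for MUT over HET. In the same order, 2 of 19, 6 of 21 and 2 of 18 transcripts had a p under 0.05 in the authors' deposited tables, all higher. The shares over all rows were 0.515%, 0.851% and 0.814%. Rod and shared photoreceptor markers were lower for 9 of 10 in each comparison, with medians of -0.12, -0.25 and -0.10, and summed to 1169 FPKM in WT and 1031 in MUT. Of their transcripts, 1 of 43, 6 of 43 and 2 of 44 had a p under 0.05 in the authors' deposited tables, all lower. From WT to MUT, 1 of them had a q-value under 0.05. Cell cycle genes were higher in HET than in WT for 11 of 14 (median log2 ratio 0.11), in MUT than in WT for 12 of 14 (0.11) and in MUT than in HET for 6 of 14 (-0.01). Of 9 progenitor markers such as Pax6, Rax and Six3, 8 were higher in HET than in WT (median 0.07), 8 in MUT than in WT (0.11) and 4 in MUT than in HET (-0.01). The X-inactivation RNA Xist had 98.8 FPKM in WT, 63.2 in HET and 135 in MUT, and the Y-linked Eif2s3y had 13.8 in WT and 23.8 in HET over 6 transcripts, and 0.357 in WT and 0.0142 in MUT over the 1 transcript listed for those groups. The part of cell composition and of sex in the differences above, including those of the X-linked Hdac6, Hdac8 and Smarca1, was not tested.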

How the data were processed

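Retinal RNA of 15 samples was purified with a Zymo kit and sequenced from Illumina libraries, per the labels' protocols. The submitters' processing notes name Bowtie2, Cufflinks and Cuffdiff with build mm10 and give no versions. The authors deposited 3 transcript tables, 1 per pair of groups. Per the file headers each row holds the FPKM of both pooled groups, the authors' log2 fold change, a p-value, a q-value and a test statistic, which is a score with no set range. No table was refitted, because values per sample were not analysed here.

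FPKM was summed per gene, and log2 ratios used a pseudocount of 0.1, which understates changes of low genes. Calls used the authors' q under 0.05 over all rows. Coordinates and exons are from GENCODE M21. Members were named by the 5 highest and 5 lowest ratios per comparison, the 2 highest and the lowest WT level per role, X linkage, and any p under 0.05. Others were chosen after their values were seen. The members and lists were chosen with earlier results of these data known. Python 3.11.15 and pandas 2.3.3 were used, and counting and ratios were tested on simulated data. One progenitor marker is not reported here and was left out of that list.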

Additional observations from a re-analysis of the deposited data

How the results depend on the processing

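The number of member transcripts with a q-value under 0.05 in the authors' deposited tables was 0 in all 3 comparisons, and stayed 0 at q under 0.10. It was also 0 at q under 0.01 and with the correction recomputed over the table or over rows at 1 FPKM or more. The number at an unadjusted p under 0.05 was 0 among rows at 1 FPKM or more. These further counts could only be 0, because no member had a p under 0.05 in the authors' deposited tables, and so they say nothing about stability. A normal approximation to the test statistic gave 0 too, which says nothing about stability because the implied errors do not match the deposited p-values. Other pseudocounts (0.01 and 1), no minimum or 2 FPKM, centring on all genes, the leading transcript alone, common transcripts and leaving out Kdm6bos (chosen after seeing the data) moved the median log2 ratio of the members between -0.05 and -0.01 for HET over WT, between -0.05 and -0.00 for MUT over WT and between 0.00 and 0.01 for MUT over HET. Of 259 recomputed ratios of named genes, 239 moved by under 0.1 and 20 by more. The total includes other minimum levels, which leave a gene's ratio unchanged, and centring, which shifts all ratios equally, so it does not measure stability. With the leading transcript alone, 16 ratios moved by more than 0.1 and 21 did not. The cause was not tested.

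No paired analysis was possible because the deposited columns hold pooled groups and carry neither replicate numbers nor the bracketed numbers of the sample titles, and for the same reason leaving out a sample was not run. The depth per sample is unknown. The smallest deposited p-value is 5e-05. Cuffdiff's implied errors differed widely between transcripts, and their relation to shared reads was not tested.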
